A study of Mus musculus with 6 samples.

Results

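The enzymes that build, sulfate and trim glycosaminoglycans, together with those that transfer xylose to other proteins, were examined in cultured mouse pulmonary artery smooth muscle cells (mPASMCs) after knockdown of the long noncoding RNA *Snhg18*. Members were taken by name: protein-coding genes of the deposited count table whose symbols belonged to the xylosyltransferase, linkage-region, heparan sulfate, chondroitin and dermatan sulfate, carbohydrate sulfotransferase, hyaluronan synthase and hyaluronidase families. This gave 67 genes of 55487 in the table, and 52 of the 67 had enough reads to be tested, out of 14531 genes tested in all. No measured value entered the choice of families, although earlier results of these data were known when they were proposed. The study asked which genes depend on *Snhg18*, an RNA it had linked to hypoxic pulmonary hypertension. Control cells had been transfected with a nontargeting siRNA (si-NC) and knockdown cells with an siRNA against *Snhg18* (si-*Snhg18*), with 3 RNA-seq libraries each. The cells were a commercial primary culture, no allele is named beside the siRNA, and the sources give neither the oxygen level nor the time after transfection nor the animals of origin. Because nothing states that the libraries came from separate cultures, the p-values measure the spread between libraries, which may be technical.

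Glycosaminoglycans are long, negatively charged sugar chains. Heparan sulfate and chondroitin or dermatan sulfate are grown on core proteins from a shared linker that starts with xylose on serine, and their sulfation pattern sets which growth factors and matrix proteins they hold. Hyaluronan carries no sulfate, has no core protein and is extruded directly through the plasma membrane. In the arterial wall these chains fill the matrix between smooth muscle cells and take part in growth factor signaling at the cell surface. A separate set of enzymes adds xylose to glucose on the epidermal growth factor-like (EGF) repeats of Notch and similar proteins.

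The 6 libraries held 18097718 to 25988746 gene counts, of which the 67 members took 0.397% to 0.413%. *Snhg18* stood at 23.5, 22.4 and 22.1 CPM (gene counts scaled to a common library size by TMM) in si-NC and at 10.6, 11.1 and 9.96 CPM in si-*Snhg18* (log2 fold change -1.10, standard error (SE) 0.10, edgeR adjusted p = 0.00727), so the targeted RNA went the way of the labels; without si-NC 1, si-NC 3 or si-*Snhg18* 3 its adjusted p was 0.0659, 0.07 and 0.0703. The 8 smooth muscle markers were all tested, with a summed level of 1750 to 1890 CPM in si-NC and 1200 to 1850 CPM in si-*Snhg18*, and *Tagln*, an actin-binding protein, was lower (-0.51, edgeR adjusted p = 0.0427). None of the 4 tested endothelial, 4 tested fibroblast or 2 tested leukocyte markers passed in edgeR. With the replicate number as a block (described below) the fibroblast marker *Pdgfra* (-0.34, edgeR adjusted p = 0.0112), the endothelial *Tek* (-1.47, 0.0341) and the smooth muscle genes *Cnn1* (-0.48, 0.0113), *Des* (-1.79, 0.00154) and *Myh11* (-0.60, 0.0207) passed as well, all lower in si-*Snhg18*. Their summed levels in si-NC and si-*Snhg18* were 12.4 to 14 against 13.3 to 15.4 CPM (6 endothelial genes), 461 to 543 against 321 to 462 CPM (4 fibroblast genes) and 7.18 to 10.5 against 5.88 to 12.1 CPM (6 leukocyte genes, with *Adgre1* and *Cd3e* at 0). The other tested markers went both ways, and none had an edgeR adjusted p under 0.05 with or without the block. Log2 fold changes were positive for *Kdr* (1.04), *Vwf* (0.50), *Cdh5* (0.05), *Dpt* (0.28), *Cd68* (0.35) and *Myocd* (0.39). They were negative for *Lum* (-0.43), *Tcf21* (-0.36), *Csf1r* (-0.14), *Acta2* (-0.22) and *Lmod1* (-0.23), and *Smtn* did not move (0.00). The 4 epithelial markers were too low to test, and *Sftpc* was at 0. The fibroblast sum was nearly all *Pdgfra*; the part of these shifts in the results below was not tested. The libraries numbered 2 stood apart from the other 4 in both groups.

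Across the 52 tested members, 7 were higher and 3 were lower in si-*Snhg18* at an adjusted p under 0.05, that is 19.2% of the members against 7.36% of all tested genes (3.65% higher and 3.71% lower). The genes that rose were *B3gat3* and *B4galt7* of the linkage region, *Chpf* and *Chsy1* of the chondroitin backbone, *Ext2* and *Ndst1* of heparan sulfate and the sulfotransferase *Chst2*. The genes that fell were *Gxylt2*, which adds xylose to EGF repeats, *Chst11*, which puts sulfate on chondroitin, and *Ext1* of the heparan sulfate backbone. A change of at least 1.5-fold was reached by *B3gat3* and *B4galt7* upward and by *Gxylt2* and *Chst11* downward, where 3.67% of all tested genes passed both thresholds.

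The members as a group had no common direction. Their median log2 fold change was 0.01, the same as the 0.01 over all tested genes, with 27 positive and 25 negative values. An unadjusted p under 0.05 in edgeR was found in 24 of the 52 members and in 3613 of all 14531 tested genes. The 2 groups did not overlap in 20 members (11 higher and 9 lower in si-*Snhg18*), 38.5% of those tested against 30.9% of all tested genes (15.3% higher and 15.5% lower). Leaving out si-NC 1, si-NC 3 or si-*Snhg18* 3 left 0 members, and 0 of all genes, past the threshold in edgeR, although 19, 20 and 17 members, the 10 named above among them, kept an unadjusted p under 0.05 and the adjusted p of *Gxylt2* was 0.0659, 0.07 and 0.0634. Without si-NC 2 there were 4 calls among the members, without si-*Snhg18* 1 there were 5, and without si-*Snhg18* 2 there were 23; the calls over all genes were 158, 319 and 3282 in these fits, against 1069 with all libraries. All 10 kept their direction in each of these fits. When the replicate number was entered as a block, which compares si-*Snhg18* 1 with si-NC 1 and so on, 30 members passed, 15 in each direction. That was 57.7% of the members against 27.2% of all tested genes (13.6% in each direction). Whether the numbers mark paired samples was not tested. Members that passed only in this second of the 2 edgeR fits with all libraries are named below as passing only with the block. Some of these also passed in other runs without the block. They were *Gxylt1*, *Xylt2*, *Ugdh*, *Glce*, *Sulf1*, *Chst12* and *Has1* in DESeq2. Without si-*Snhg18* 2, *Xxylt1*, *Sulf2*, *Chst15*, *Dse*, *Dsel*, *Has2* and *Hs6st2* did so in edgeR. By contrast, *Hs2st1*, *Hs6st1*, *Hs3st5* and *Ndst3* did not pass without both libraries numbered 2 (edgeR adjusted p = 0.0702, 0.0992, 0.108 and 0.0608). In bulk RNA a lower level from fewer cells of a type and one from less RNA per cell cannot be told apart.

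**Figure D1:**
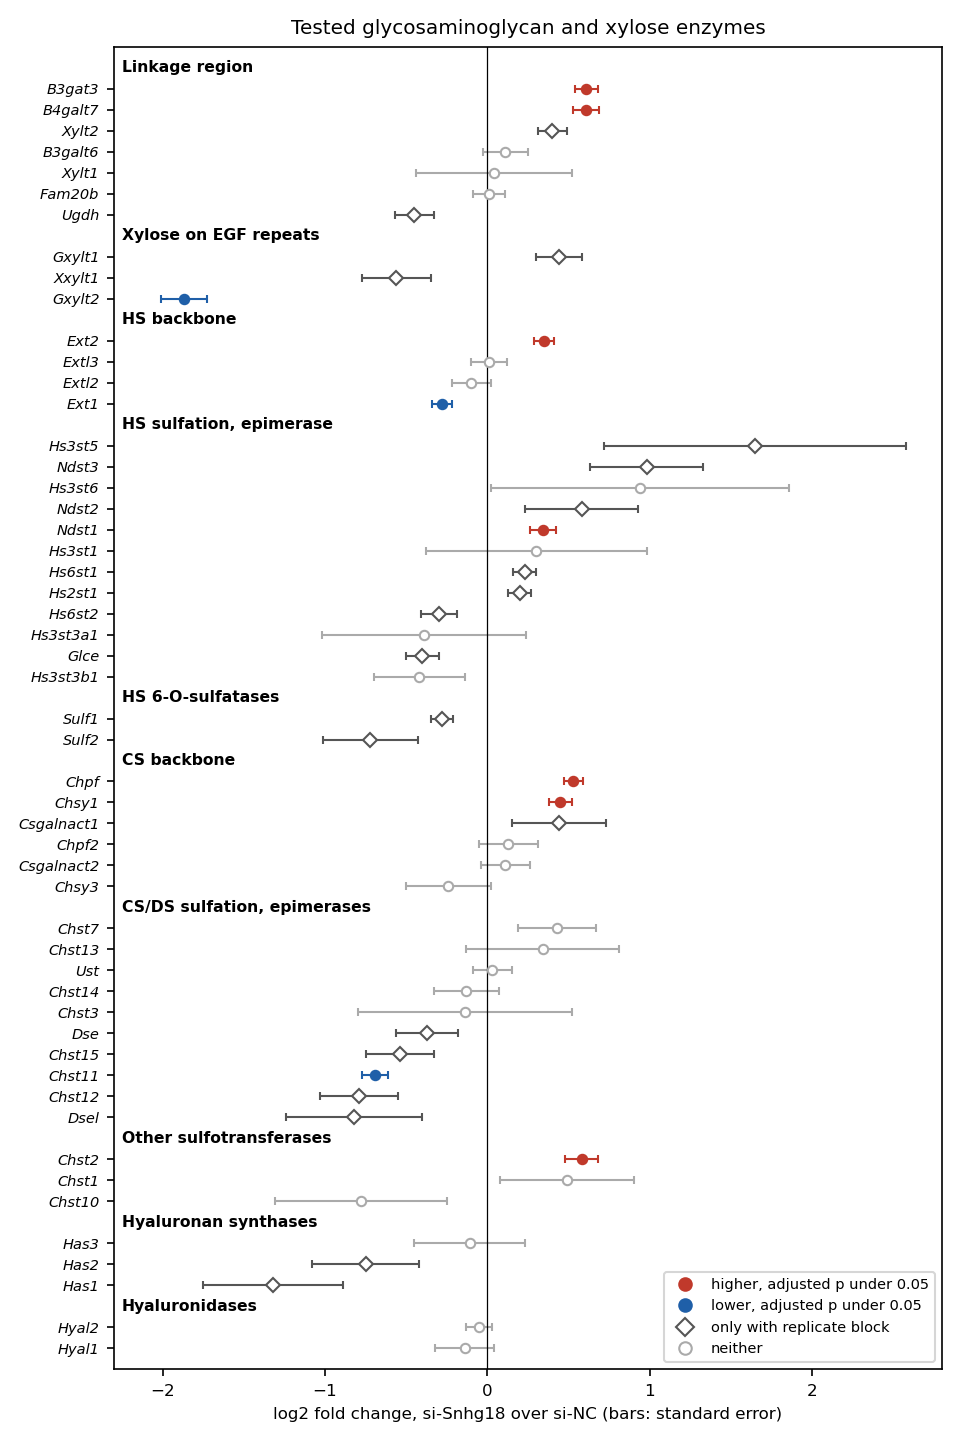
Log2 fold change (x axis, si-*Snhg18* over si-NC, bars are SE) of the 52 tested members, grouped by role (HS, heparan sulfate; CS, chondroitin sulfate; DS, dermatan sulfate). Filled circles passed at an adjusted p under 0.05 (7 red, higher; 3 blue, lower), open diamonds passed only with the replicate block, and *Gxylt2* at -1.87 lies far to the left of the other members that passed.

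The largest change among the members that passed was in xylose transfer to EGF repeats, where *Gxylt2* fell to 27.3% of its control level. Its paralog *Gxylt1* was higher, in edgeR with the replicate block only. Both enzymes add the first xylose to an O-linked glucose on EGF repeats, and *Xxylt1* adds the next one. *Gxylt2* (ENSMUSG00000030074) lies at chr6:100704734-100810913 on the plus strand of mm10, and its longest annotated transcript has 7 exons and 7658 bases. *Gxylt1* (ENSMUSG00000036197) lies at chr15:93239742-93275179 on the minus strand, with 8 exons and 6611 bases. The RefSeq promoter windows of this pair (GRCm38.p6, from 250 bases before to 50 bases after the transcription start, in the direction of the gene) are shown because the fitted differences of the paralogs had opposite signs, *Gxylt1* passing only with the block; GC boxes with the letters GGGCGG are in capitals.
Gxylt1, chr15:93275130-93275429, minus strand: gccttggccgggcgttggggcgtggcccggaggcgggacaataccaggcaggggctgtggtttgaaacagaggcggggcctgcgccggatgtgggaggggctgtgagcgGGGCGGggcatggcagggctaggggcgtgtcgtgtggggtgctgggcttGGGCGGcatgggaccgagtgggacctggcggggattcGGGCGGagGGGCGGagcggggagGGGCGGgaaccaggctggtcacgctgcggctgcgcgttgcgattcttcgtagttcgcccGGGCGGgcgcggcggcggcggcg
Gxylt2, chr6:100704484-100704783, plus strand: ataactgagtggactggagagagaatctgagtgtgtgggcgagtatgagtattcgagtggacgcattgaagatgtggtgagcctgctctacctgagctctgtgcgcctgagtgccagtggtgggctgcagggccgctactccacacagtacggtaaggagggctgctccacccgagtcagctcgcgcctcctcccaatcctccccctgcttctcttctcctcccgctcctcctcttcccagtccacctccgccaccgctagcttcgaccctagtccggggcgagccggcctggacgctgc

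The *Gxylt1* window was 74.7% G and C and held 6 GC boxes, and the *Gxylt2* window was 62% G and C and held none on either strand. GGGCGG or its reverse complement was present in 35.7% of 32851 RefSeq promoter windows of the same length and in 61.7% of the 60 windows found for 53 of the 67 members. Neither window held TATAAA or GTGGGAA, which were found in 13.6% and 6.38% of all windows on either strand. CCAAT, found in 37.4% of all windows, occurred 1 time in the *Gxylt2* window. These matches describe the letters only.

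*Gxylt2* was at 70.4, 63.7 and 78.6 CPM in the 3 si-NC libraries and at 16.1, 21.2 and 20.7 CPM in the 3 si-*Snhg18* libraries. The 3 knockdown libraries lay far below the 3 controls. The log2 fold change was -1.87 (SE 0.14, edgeR adjusted p = 0.00545). *Gxylt1* was at 78.3, 99.4 and 91.4 CPM in si-NC and at 103, 142 and 120 CPM in si-*Snhg18*. Its groups did not overlap, yet in edgeR the log2 fold change of 0.44 (SE 0.14) passed only with the block (edgeR adjusted p = 0.117 without and 0.00259 with it). DESeq2 without the block gave an adjusted p of 0.047. *Xxylt1* was at 58.2, 64.7 and 48.6 CPM in si-NC and at 29.3, 50.3 and 36.6 CPM in si-*Snhg18*. The highest knockdown library exceeded the lowest control library, and the log2 fold change of -0.56 (SE 0.21) passed only with the block (edgeR adjusted p = 0.165 without and 0.0143 with it).

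Levels of the 2 glucoside xylosyltransferases were also compared per length of transcript. The *Gxylt2* share of their summed RPKM (CPM divided by the transcript length in kilobases) was 43.7%, 35.6% and 42.6% in si-NC and 11.8%, 11.4% and 13% in si-*Snhg18* (40.6% ± 4.37 and 12.1% ± 0.795, SD, n = 3 each). The groups did not overlap, and the exact two-sided permutation p was 0.1, the smallest that 3 against 3 libraries allow (0.373 after Benjamini-Hochberg adjustment over the 41 family shares tested). The sum of both genes was 22.8 ± 1.62 RPKM in si-NC and 20.9 ± 3.29 RPKM in si-*Snhg18* (SD, n = 3 each), and these sums overlapped (exact permutation p = 0.5, which does not show that they were equal). Among 8 other enzymes that glycosylate EGF repeats, 7 were tested, 1 was higher and 1 was lower (28.6% called against 7.36% of all tested genes). With the block 1 was higher and 2 were lower (42.9% against 27.2%). *Poglut1*, the glucosyltransferase that provides the acceptor for both Gxylt enzymes, was at 38.7, 46.8 and 43.6 CPM in si-NC and 29.5, 33 and 30.8 CPM in si-*Snhg18* (-0.47, SE 0.10, edgeR adjusted p = 0.041). *Rfng*, a Fringe enzyme that extends O-fucose, was at 17.9, 17.4 and 18 CPM in si-NC and 23.7, 23.5 and 22.7 CPM in si-*Snhg18* (0.39, SE 0.08, edgeR adjusted p = 0.0422).

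**Figure D2:**
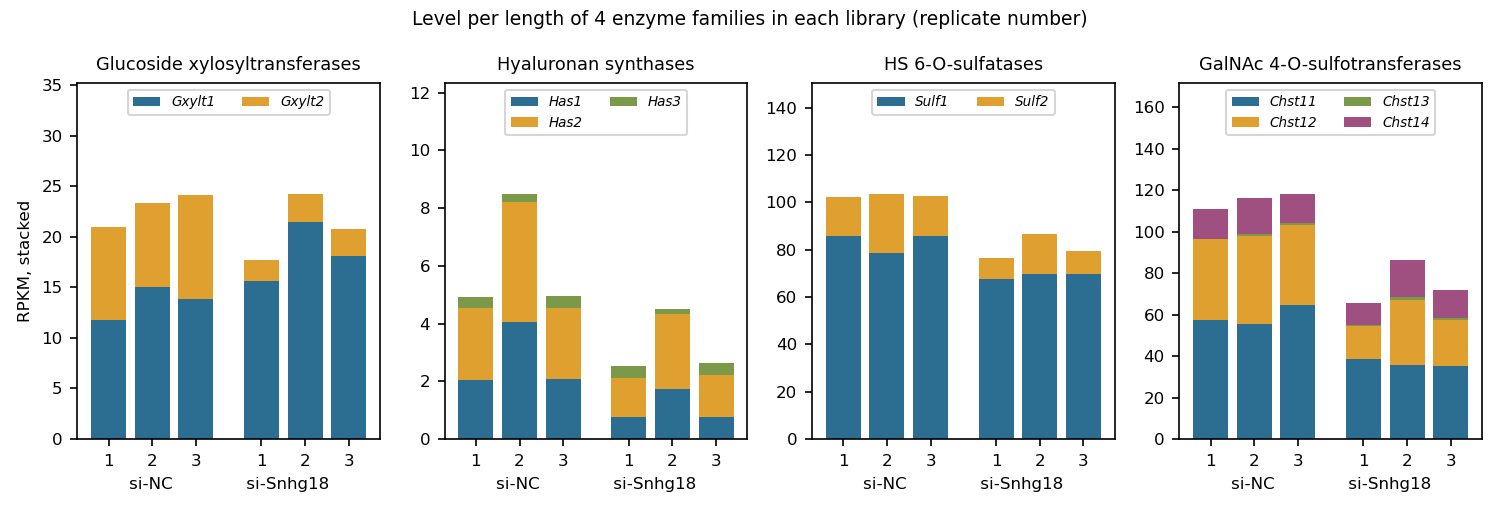
Stacked RPKM (y axis) of 4 enzyme families in each library, numbered 1 to 3 within si-NC and si-*Snhg18*. The *Gxylt2* part shrinks from 35.6% or more to 13% or less of the glucoside xylosyltransferases under totals that overlap between groups, whereas the totals of the hyaluronan synthases, the heparan sulfate (HS) 6-O-sulfatases and the N-acetylgalactosamine (GalNAc) 4-O-sulfotransferases are lower in si-*Snhg18*.

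The linker shared by heparan sulfate and chondroitin sulfate is assembled by a xylosyltransferase (*Xylt1* or *Xylt2*), 2 galactosyltransferases (*B4galt7*, then *B3galt6*) and a glucuronyltransferase (*B3gat3*). Of 7 members of this step, which include the xylose kinase *Fam20b* and *Ugdh*, the enzyme that makes UDP-glucuronic acid, 2 rose, none fell and 5 did not pass (28.6% called against 7.36% of all tested genes). *B3gat3* (chr19:8920374-8927236, plus strand) was at 32.7, 36 and 34.6 CPM in si-NC and at 51.5, 53.6 and 53.2 CPM in si-*Snhg18*. Both groups were tight, and the log2 fold change was 0.61 (SE 0.07, edgeR adjusted p = 0.0106). *B4galt7* (chr13:55599896-55610443, plus strand) was at 44, 40.7 and 41.8 CPM in si-NC and at 66.7, 59.9 and 66 CPM in si-*Snhg18*. All 3 knockdown libraries lay above all controls, and the log2 fold change was also 0.61 (SE 0.08, edgeR adjusted p = 0.0125). *B3galt6*, the enzyme between them in the pathway, stood at 13, 12.3 and 10.4 CPM against 11.8, 12.8 and 14 CPM, with overlapping groups (0.11, SE 0.14, edgeR adjusted p = 0.662).

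The 2 chain-initiating xylosyltransferases differed in their spread. *Xylt2* was at 22.8, 26.6 and 24 CPM in si-NC and at 30.7, 33.6 and 32.5 CPM in si-*Snhg18*, without overlap. Its log2 fold change of 0.40 (SE 0.09) had an edgeR adjusted p of 0.0562, and of 0.0121 with the block. *Xylt1* was at 93.5, 54.8 and 105 CPM in si-NC and at 137, 35 and 87.9 CPM in si-*Snhg18*. The library numbered 2 was the lowest of each group, the range within si-*Snhg18* was 3.92-fold, and the fitted difference of 0.04 (SE 0.48) was -0.10 with the block, so no direction can be given. *Ugdh* was at 380, 469 and 355 CPM in si-NC and at 284, 324 and 275 CPM in si-*Snhg18*. Its groups did not overlap, and in edgeR the log2 fold change of -0.45 (SE 0.12) passed only with the block (edgeR adjusted p = 0.0842 without and 0.0025 with it). DESeq2 without the block gave an adjusted p of 0.0198. *Fam20b* had means of 85.5 ± 4 and 86 ± 10.1 CPM (SD, n = 3 each; log2 fold change 0.01, SE 0.10).

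**Figure D3:**
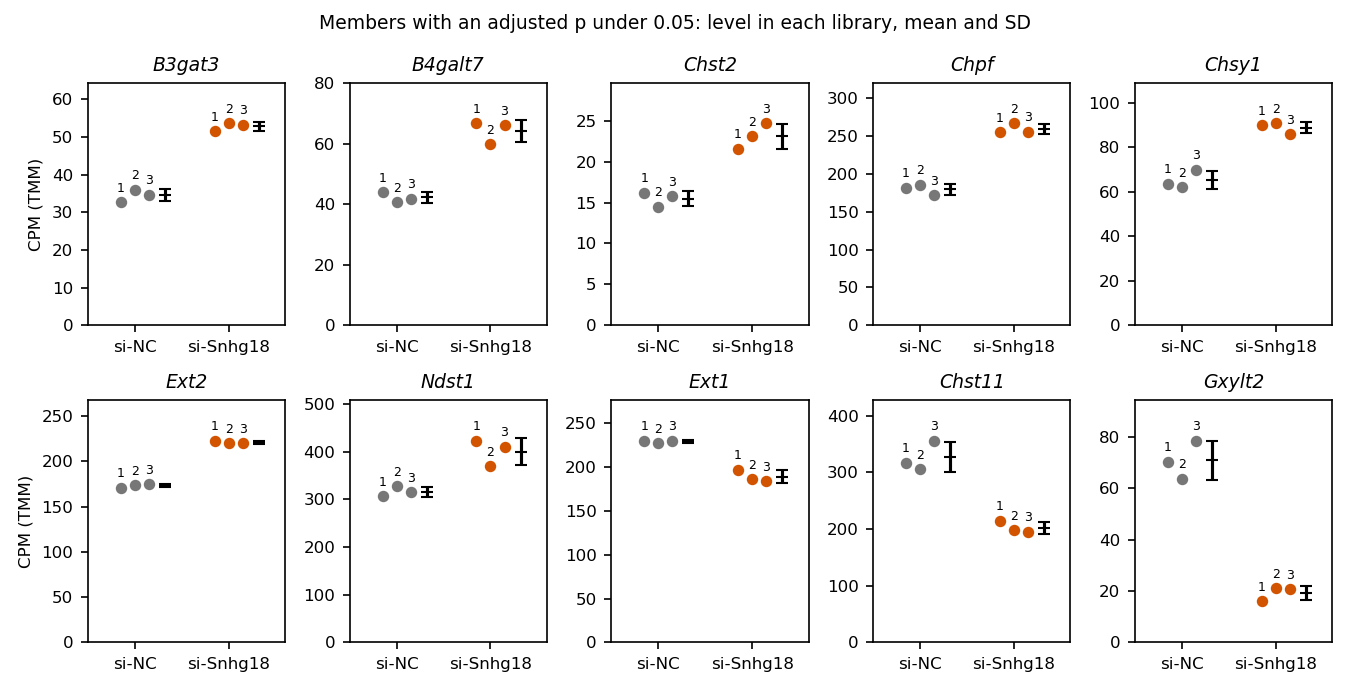
CPM after TMM scaling (y axis, from 0) in each library for the 10 members with an adjusted p under 0.05; points are libraries with their replicate number, and the black bar is the mean ± SD of 3. In each panel the si-NC and si-*Snhg18* points do not overlap, and relative to the control mean the difference is largest for *Gxylt2*.

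The heparan sulfate backbone is polymerized by the EXT1 and EXT2 proteins, which work as a complex, and their genes moved in opposite directions. *Ext2* (chr2:93661028-93822568, minus strand) was at 171, 174 and 175 CPM in si-NC and at 223, 220 and 220 CPM in si-*Snhg18*. *Ext1* (chr15:53064038-53346159, minus strand) was at 230, 227 and 230 CPM in si-NC and at 197, 186 and 184 CPM in si-*Snhg18*. The libraries of each group lay close together, and both genes separated the groups completely. The log2 fold change was 0.35 for *Ext2* (SE 0.06, edgeR adjusted p = 0.0205) and -0.28 for *Ext1* (SE 0.06, edgeR adjusted p = 0.045). The *Ext1* call is close to the threshold and was lost with RLE scaling factors (edgeR adjusted p = 0.0505) and without a filter on low counts (0.0904). Per length, *Ext1* made up 27.2%, 26.6% and 27.5% of the summed RPKM of the 5 exostosin genes in si-NC and 22.2%, 19.9% and 21% in si-*Snhg18*. *Ext2* made up 41.6%, 42% and 42.9% and then 51.7%, 48.5% and 51.8%. Neither share overlapped between groups (exact permutation p = 0.1, adjusted 0.373 over 41 shares), and the difference of -6.05 percentage points for *Ext1* was -1.88 with the deposited exon lengths. The summed level of the 5 genes was 110 ± 0.945 RPKM in si-NC and 117 ± 4.07 RPKM in si-*Snhg18* (SD, n = 3 each). *Extl3*, which starts the chain, and *Extl2*, which can end it, had overlapping groups with log2 fold changes of 0.01 (SE 0.11) and -0.10 (SE 0.12).

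Heparan sulfate chains are then edited by N-deacetylase/N-sulfotransferases (Ndst), the glucuronic acid epimerase *Glce* and 2-O-, 6-O- and 3-O-sulfotransferases. Of 16 members of this step 12 were tested, 1 rose and none fell, a share of 8.33% that is near the 7.36% of all tested genes. With the block 6 were higher and 2 lower, 66.7% against 27.2%. *Ndst1*, the most abundant of its family per length, was at 307, 327 and 315 CPM in si-NC and at 423, 369 and 410 CPM in si-*Snhg18*. The lowest knockdown library exceeded the highest control, and the log2 fold change was 0.34 (SE 0.08, edgeR adjusted p = 0.0469). This call was lost with RLE factors (0.0504) and without a filter on low counts (0.0745). *Ndst1* overlaps *Rps14*, a ribosomal protein gene on the opposite strand, and the counting is not stated to use strand.

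*Ndst2* was at 82, 48.6 and 89.7 CPM in si-NC and at 146, 63.9 and 120 CPM in si-*Snhg18*. The library numbered 2 was far below its group both times, the groups overlapped, and the log2 fold change of 0.58 (SE 0.35) passed only with the block (edgeR adjusted p = 0.349 without and 0.00588 with it). *Ndst3* was a minor gene at 1.73, 3.14 and 2.16 CPM in si-NC and 2.97, 6.19 and 4.71 CPM in si-*Snhg18* (0.98, SE 0.35, edgeR adjusted p = 0.152, and 0.0125 with the block). The summed level of the Ndst family was 68.6, 63.5 and 71.9 RPKM in si-NC and 103, 74.6 and 94.9 RPKM in si-*Snhg18*. These sums did not overlap (exact permutation p = 0.1, the smallest possible, not adjusted over families).

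The 6-O-sulfotransferase *Hs6st1* was at 74.2, 78 and 81 CPM in si-NC and at 86.4, 96.5 and 91.4 CPM in si-*Snhg18*. *Hs6st2* was at 67.2, 64 and 65.2 CPM in si-NC and at 45.6, 59.3 and 54 CPM in si-*Snhg18*. Neither gene overlapped between groups, and both differences, 0.23 (SE 0.07) and -0.30 (SE 0.11), passed only with the block (edgeR adjusted p = 0.109 and 0.141 without, 0.0265 and 0.0438 with it). The *Hs6st1* share of the family RPKM was 58% ± 1.51 in si-NC and 66.9% ± 1.74 in si-*Snhg18* (exact permutation p = 0.1, adjusted 0.373 over 41 shares). The family sum of 36 ± 0.85 and 36.7 ± 2.91 RPKM (SD, n = 3 each) overlapped. The 2-O-sulfotransferase *Hs2st1* had 173, 191 and 187 CPM against 203, 221 and 210 CPM, and *Glce* had 29, 33.7 and 32 CPM against 23.6, 25.6 and 22.4 CPM. They too separated without overlap and in edgeR passed only with the block. *Hs2st1* gave 0.20 (SE 0.07, edgeR adjusted p = 0.141 and 0.0309 with it). *Glce* gave -0.40 (SE 0.10, edgeR adjusted p = 0.0614 and 0.0147), and DESeq2 without the block gave it an adjusted p of 0.011.

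Of the 3-O-sulfotransferases, which add the rarest modification, *Hs3st1* held 93.8% ± 4.4 of the family RPKM in si-NC and 93.5% ± 3.72 in si-*Snhg18* (SD, n = 3 each). It was at 54.9, 19.1 and 60.8 CPM in si-NC and at 97.4, 15.8 and 53 CPM in si-*Snhg18*. Here the library numbered 2 was several-fold below the others of its group, the range within si-*Snhg18* was 6.15-fold, and the difference of 0.30 (SE 0.68) did not pass in either fit. *Hs3st5* was near the floor at 0.863, 0.122 and 0.127 CPM against 1.9, 0.307 and 1.31 CPM, and its log2 fold change of 1.65 (SE 0.93) passed only with the block (edgeR adjusted p = 0.327 without and 0.0423 with it). Leaving out 1 library moved that value to between 1.08 and 3.17, and without both libraries numbered 2 it did not pass (1.70, edgeR adjusted p = 0.108). *Hs3st6* had 0.604, 0.122 and 0.423 CPM against 1.07, 0.0768 and 1.09 CPM (0.94, SE 0.92). *Hs3st3a1* and *Hs3st3b1*, whose catalytic parts are almost identical so that reads may be split between them, had log2 fold changes of -0.39 (SE 0.63) and -0.42 (SE 0.28) at no more than 4.57 CPM in any library.

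The extracellular 6-O-sulfatases *Sulf1* and *Sulf2* remove sulfate from finished heparan sulfate. Per length of the longest transcript, *Sulf1* had the highest level of all members in si-NC, 83.6 RPKM on average, and 69 RPKM in si-*Snhg18*. This rank depends on the length used. The deposited exon lengths of *Ugdh* (2550 against 6156 bases) and *Extl3* (582 against 6013 bases) would place both above *Sulf1*. *Sulf1* was at 481, 441 and 481 CPM in si-NC and at 378, 391 and 391 CPM in si-*Snhg18*. The groups were well apart, and the log2 fold change of -0.28 (SE 0.07) had an edgeR adjusted p of 0.0565, and of 0.0142 with the block. *Sulf2* was at 75.1, 115 and 77.2 CPM in si-NC and at 41.5, 77.3 and 43.5 CPM in si-*Snhg18*. In each numbered pair the knockdown library was lower, although si-*Snhg18* 2 exceeded si-NC 1 and 3. The log2 fold change of -0.72 (SE 0.29) passed only with the block (edgeR adjusted p = 0.186 without and 0.00112 with it). *Sulf2* overlaps *Ncoa3* on the opposite strand. The sum of both sulfatases was 103 ± 0.755 RPKM in si-NC and 80.8 ± 5.25 RPKM in si-*Snhg18* (SD, n = 3 each). These sums did not overlap (exact permutation p = 0.1, not adjusted over families).

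The chondroitin backbone is begun by the GalNAc transferases *Csgalnact1* and *Csgalnact2* and extended by *Chsy1*, *Chsy3* and the polymerizing factors *Chpf* and *Chpf2*. Of these 6 members 2 rose and none fell (33.3% against 7.36% of all tested genes), and 5 of the 6 differences were positive. *Chpf* (chr1:75474569-75479307, minus strand) was at 182, 186 and 172 CPM in si-NC and at 255, 267 and 256 CPM in si-*Snhg18*. *Chsy1* (chr7:66109515-66173798, plus strand) was at 63.7, 62.1 and 69.9 CPM in si-NC and at 90.1, 90.8 and 86 CPM in si-*Snhg18*. For both genes the knockdown libraries lay above the controls by several times the spread within a group. The log2 fold change was 0.53 for *Chpf* (SE 0.06, edgeR adjusted p = 0.0109) and 0.45 for *Chsy1* (SE 0.07, edgeR adjusted p = 0.0215). The 4 elongation genes summed to 96.4, 91.2 and 95.6 RPKM in si-NC and to 129, 123 and 126 RPKM in si-*Snhg18*. This was 134% of the control (exact permutation p = 0.1, the smallest possible, not adjusted over families). *Chpf2*, whose locus overlaps *Smarcd3* on the opposite strand, had 140, 107 and 144 CPM against 164, 110 and 153 CPM, with the library numbered 2 lowest in both groups (0.13, SE 0.18). *Csgalnact1* had 25.7, 14.9 and 27.1 CPM against 38.6, 21.6 and 31.8 CPM. It too was lowest in the libraries numbered 2, and its log2 fold change of 0.44 (SE 0.29) passed only with the block (edgeR adjusted p = 0.394 without and 0.0169 with it). *Csgalnact2* and *Chsy3* gave 0.11 (SE 0.15) and -0.24 (SE 0.26), with overlapping groups.

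The chondroitin chain is then sulfated and, in dermatan sulfate, epimerized. All 10 members of this step were tested; 1 fell and none rose, a share of 10% that is near the 7.36% of all tested genes, and 7 of the 10 differences were negative. With the block 5 were lower and none higher, 50% against 27.2% of all tested genes (13.6% lower). *Chst11*, the main chondroitin 4-O-sulfotransferase in many tissues (chr10:82985498-83195900, plus strand), was at 317, 306 and 356 CPM in si-NC and at 215, 198 and 195 CPM in si-*Snhg18*. The groups were far apart, and the log2 fold change was -0.69 (SE 0.08, edgeR adjusted p = 0.011), which left 62% of the control level. *Chst12*, which transfers sulfate to the same position, was at 90.4, 99.2 and 90.6 CPM in si-NC and at 36.5, 73.2 and 51.8 CPM in si-*Snhg18*. The controls were tight and the knockdown libraries were spread 2.01-fold but all lower (-0.79, SE 0.24, edgeR adjusted p = 0.0989, and 0.00646 with the block). *Chst14*, the dermatan 4-O-sulfotransferase, overlapped between groups at 32.3 ± 3.93 and 29.6 ± 7.67 CPM (SD, n = 3 each; -0.13, SE 0.20). Summed over *Chst11* to *Chst14*, the 4-O-sulfotransferases stood at 111, 116 and 118 RPKM in si-NC and 65.6, 86.4 and 72.1 RPKM in si-*Snhg18*. This left 64.8% (exact permutation p = 0.1, the smallest possible, not adjusted over families).

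*Chst15*, which adds a further sulfate to 4-sulfated GalNAc, was at 17, 23.5 and 18.4 CPM in si-NC and at 10.6, 17.2 and 12.5 CPM in si-*Snhg18*. It overlaps *Fgfr2* on the same strand, with highest counts of 575 for *Chst15* and 148 for *Fgfr2*. The dermatan sulfate epimerase *Dse* was at 115, 140 and 122 CPM in si-NC and at 72.9, 123 and 96.2 CPM in si-*Snhg18*. Its relative *Dsel* was at 24, 31.8 and 18.6 CPM in si-NC and at 8.5, 23.7 and 9.69 CPM in si-*Snhg18*. In all 3 genes the library numbered 2 was the highest of its group, the knockdown library was lower in each numbered pair, and the groups overlapped. Their log2 fold changes of -0.54 (SE 0.21), -0.37 (SE 0.19) and -0.82 (SE 0.42) passed only with the block (edgeR adjusted p = 0.182, 0.288 and 0.283 without, 0.00817, 0.0192 and 0.012 with it). *Ust*, the uronyl 2-O-sulfotransferase, and the 6-O-sulfotransferases *Chst3* and *Chst7* gave 0.03 (SE 0.12), -0.14 (SE 0.66) and 0.43 (SE 0.24), and *Chst13* gave 0.34 (SE 0.47), all with overlapping groups and none past the test in either fit.

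Among 7 sulfotransferases that act on other glycans, 3 were tested and 1 rose (33.3% against 7.36% of all tested genes, and 33.3% against 27.2% with the block). *Chst2*, which sulfates N-acetylglucosamine at position 6 (chr9:95399292-95406722, minus strand), was at 16.2, 14.5 and 15.8 CPM in si-NC and at 21.6, 23.1 and 24.7 CPM in si-*Snhg18*. The groups did not overlap, and the log2 fold change was 0.58 (SE 0.10, edgeR adjusted p = 0.0267). *Chst1*, a galactose 6-O-sulfotransferase of keratan sulfate, was at 79.1, 51.6 and 84.9 CPM in si-NC and at 147, 46.6 and 110 CPM in si-*Snhg18*. The library numbered 2 was again the lowest of each group, and the difference of 0.49 (SE 0.41) did not pass in either fit. *Chst10*, which makes the HNK-1 epitope, had 1.08, 1.51 and 0.931 CPM against 0.277, 1.15 and 0.602 CPM (-0.78, SE 0.53).

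Hyaluronan is made by the synthases *Has1*, *Has2* and *Has3* and cut by hyaluronidases. With all libraries and no block, none of the 3 synthases passed in edgeR. An unadjusted p under 0.05 in edgeR was found in 1 of them and in 3613 of the 14531 tested genes. With the block *Has1* and *Has2* were lower, 66.7% of the synthases against 27.2% of all tested genes (13.6% lower). *Has1* was at 7.2, 14.4 and 7.32 CPM in si-NC and at 2.69, 6.11 and 2.74 CPM in si-*Snhg18*. Libraries 1 and 3 of each group were nearly equal, library 2 was well above them, and every knockdown library was below every control. The log2 fold change was -1.32 (SE 0.43, edgeR adjusted p = 0.125, and 0.00142 with the block), at 40.2% of the control level. *Has2*, the synthase that the embryonic heart requires, was at 10.7, 17.5 and 10.4 CPM in si-NC and at 5.73, 11 and 6.19 CPM in si-*Snhg18*. It had the same shape, but si-*Snhg18* 2 exceeded si-NC 1 and 3 (-0.75, SE 0.33, edgeR adjusted p = 0.219, and 0.00477 with the block). *Has3* had 2.24, 1.8 and 2.5 CPM against 2.41, 1.19 and 2.46 CPM, and its difference of -0.11 (SE 0.34) was 0.04 without both libraries numbered 2, so no direction can be given. The 3 synthases summed to 4.92, 8.5 and 4.95 RPKM in si-NC and to 2.52, 4.52 and 2.65 RPKM in si-*Snhg18*. This left 52.7% without overlap (exact permutation p = 0.1, the smallest possible, not adjusted over families). Within that sum the *Has1* share was 43.6% ± 3.58 in si-NC and 32.5% ± 4.94 in si-*Snhg18* (SD, n = 3 each). The *Has2* share was 49.8% ± 1.16 and 55.4% ± 1.86, a difference of 5.59 percentage points that was 0.984 with the deposited exon lengths. For both shares the exact permutation p was 0.1, adjusted 0.373 over 41 shares. Of 6 hyaluronidases only *Hyal1* and *Hyal2* were tested. *Hyal2*, the abundant membrane-anchored form, was at 40.2, 41.6 and 45.3 CPM in si-NC and 40.9, 40.9 and 40.8 CPM in si-*Snhg18* (-0.05, SE 0.08). *Hyal1* gave -0.14 (SE 0.18) and overlaps *Naa80* on the same strand, with highest counts of 151 for *Hyal1* and 391 for *Naa80*.

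A further 15 members were below the count filter. *B3gat1*, *Hs3st2*, *Hyal4* and *Hyal5* had 0 reads in all 6 libraries, which allows a level of up to 0.115 to 0.166 CPM depending on the library (3 counts, counting error only). The highest count in any library was 1 for *Hyal6*, *Chst4* and *Chst9*, 2 for *Hs3st4*, 3 for *Extl1* and 4 for *Chst8*. It was 5 for *B3gat2* and *Chst5*, 7 for *Hs6st3*, 9 for *Hyal3* and 11 for *Ndst4*. *B3gat1* and *B3gat2* make the HNK-1 epitope on neural glycoproteins, unlike *B3gat3* of the linker.

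Like most genes in the table, many members also varied with the replicate number. In 37 of the 52 tested members (71.2%) the library numbered 2 was the extreme of its own group on the same side in both groups, against 62% of all tested genes. It was the lowest in 13 members, including *Hs3st1*, *Xylt1*, *Chst1*, *Ndst2* and *Csgalnact1*, and the highest in 24, including *Has1*, *Has2*, *Sulf2*, *Dsel* and *Chst12*. The ratio of the highest to the lowest library within a group was under 1.2 in 15 members and 2 or more in 15, with a median of 1.49. Leaving out both libraries numbered 2, an alternative added after the values had been seen, gave 12 higher and 15 lower members in edgeR, against 7 and 3 with all 6, while the calls over all genes went from 1069 to 4020. The labels give no batch or date, so what the number 2 stands for was not tested.

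**Figure D4:**
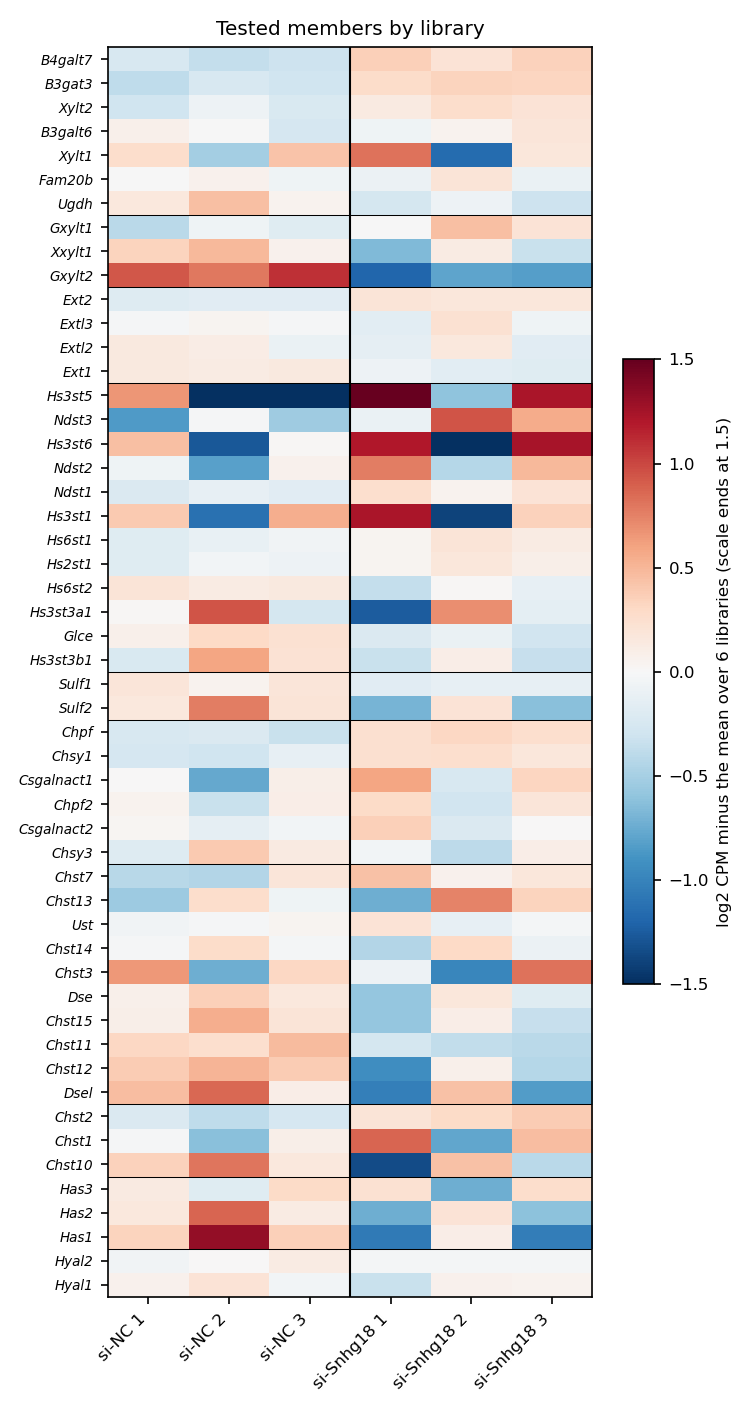
Deviation of log2 CPM from the mean over the 6 libraries (color scale, ends at 1.5 in both directions) for the 52 tested members, in the role order of the fold change plot, with horizontal lines between roles. *Gxylt2* changes color between si-NC and si-*Snhg18*, whereas *Hs3st1* and *Xylt1* are lowest in the library numbered 2 of either group.

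The neighboring steps were read from lists of 47 genes, of which 45 were tested, 5 were higher and 3 lower (17.8% against 7.36% of all tested genes). With the block 8 were higher and 14 lower, 48.9% against 27.2% of all tested genes. Of 17 genes that supply sugar nucleotides and activated sulfate, 1 fell and none rose, 5.88% against the 7.36% of all tested genes. This was *Impad1*, the Golgi phosphatase that clears the by-product of sulfation, at 135, 151 and 154 CPM in si-NC and 105, 110 and 103 CPM in si-*Snhg18* (-0.47, SE 0.07, edgeR adjusted p = 0.0204). The range of the 17 log2 fold changes was -1.05 to 0.20 with a median of -0.13, and with the block 6 were lower and 1 higher (41.2% against 27.2%).

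Of 14 lysosomal enzymes that degrade the chains 3 rose and none fell, 21.4% of the list against 7.36% of all tested genes (3.65% higher). *Hgsnat*, which acetylates the heparan sulfate end for further cleavage, was at 78.5, 70.2 and 72.4 CPM in si-NC and at 151, 99.9 and 142 CPM in si-*Snhg18* (0.83, SE 0.16, edgeR adjusted p = 0.033). The β-galactosidase *Glb1* was at 87.7, 85.9 and 90.1 CPM and then at 113, 108 and 115 CPM (0.35, SE 0.06, edgeR adjusted p = 0.0255). Both genes separated the groups completely, while the whole list had a median log2 fold change of 0.03 and, with the block, 5 genes higher and 4 lower (64.3% against 27.2%). Of 8 genes that bind or handle hyaluronan 7 were tested, 1 was higher and 1 lower (28.6% called against 7.36% of all tested genes). With the block 1 was higher and 2 were lower (42.9% against 27.2%). *Cd44*, its main surface receptor, was at 566, 570 and 547 CPM in si-NC and 420, 475 and 417 CPM in si-*Snhg18* (-0.36, SE 0.07, edgeR adjusted p = 0.0404). *Cemip2*, a membrane protein described as a hyaluronidase, was at 47.5, 32.8 and 47 CPM and then at 93.7, 62.2 and 84.8 CPM (0.92, SE 0.20, edgeR adjusted p = 0.0464). The 2 passed in opposite directions, each without overlap between groups. Such separation was found in 28.6% of the tested genes of this list, near the 30.9% of all tested genes.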

How the data were processed

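Polyadenylated RNA libraries (a stranded mRNA kit) from mPASMCs, 3 si-NC and 3 si-*Snhg18*, were sequenced. The submitters' processing notes name HISAT2 and mm10; the authors deposited raw counts per Ensembl gene, and the counting program, its strand setting and any filter are not given in the sources used here. Genes were kept with filterByExpr at a minimum count of 10, scaled by TMM and tested between si-*Snhg18* and si-NC with edgeR's quasi-likelihood test (edgeR 4.0.16, R 4.3.3), with Benjamini-Hochberg adjustment over all genes tested. A call is an adjusted p under 0.05, and SE is the absolute log2 fold change divided by the square root of the F statistic. CPM and RPKM were computed from the deposited counts, RPKM with the longest GENCODE vM21 transcript, since the deposited exon lengths are shorter for some members. Library totals of 18097718 to 25988746 counts put 3 counts at 0.115 to 0.166 CPM. Family shares and sums were compared by exact two-sided permutation over libraries. The p-values of the shares were adjusted over the 41 shares, and those of the sums were not adjusted over the families.

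The replicate number, which comes from the sample titles, was also fitted as a block, which takes same-numbered libraries as pairs. Same-numbered libraries deviated together from their group means (r = 0.41, 0.742 and 0.359 for numbers 1 to 3). In groups of 3, a shift of number 2 in both groups also moves the deviations of numbers 1 and 3 together. Unlike-numbered libraries were not compared, so whether the numbers pair the samples was not tested. Alternatives were DESeq2 1.42.0, limma-voom (limma 3.58.1), RLE factors, no scaling factors, 2 other filters, the block and leaving out each library. The edgeR, limma-voom and DESeq2 steps were tested on simulated data. These were drawn without a replicate effect, so they do not cover the shift of the libraries numbered 2. Members and lists were chosen with earlier results of these data known. Named in the text are members past the test in either fit, members with at least a 1.5-fold change, the 2 most abundant per role, both xylosyltransferase families, the synthases and sulfatases, untested members by count, and neighboring genes past the test. A neighboring gene past the test is not reported here.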

Additional observations from a re-analysis of the deposited data

How the results depend on the processing

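The direction of all 10 members that passed held in every alternative run, with *Gxylt2* between -1.95 and -1.76 when 1 library was left out, but the number of calls depended on the settings. DESeq2 gave 9 higher and 8 lower members, 2 and 4 of them at 1.5-fold, and 5 higher and 9 lower neighboring genes. Its calls over all genes were 2124, against 1069 in the main fit. Among its calls were *Gxylt1*, *Xylt2*, *Ugdh*, *Glce*, *Sulf1*, *Chst12* and *Has1*, which passed in edgeR only with the block. Their DESeq2 adjusted p ran from 0.00538 (*Sulf1*) to 0.047 (*Gxylt1*). Library totals without scaling factors gave 5 higher and 1 lower neighboring genes (1105 calls over all genes). No filter on low counts gave 3 higher and 3 lower ones (877 calls). With the replicate block, 15 members were higher and 15 lower, 4 and 7 of these at 1.5-fold. Of the neighboring genes 8 were higher and 14 lower, and the calls over all genes were 3954. Without both libraries numbered 2 (chosen after seeing the data), 12 members were higher and 15 lower, 4 and 9 at 1.5-fold. Of the neighboring genes 7 were higher and 17 lower, and the calls over all genes were 4020. Leaving out each library in turn gave 0 to 8 higher and 0 to 15 lower members, 0 to 3 and 0 to 9 of them at 1.5-fold, 0 to 5 higher and 0 to 13 lower neighboring genes, and an *Snhg18* log2 fold change of -1.14 to -1.06 (-1.15 without both libraries numbered 2); the fits without si-NC 1, si-NC 3 or si-*Snhg18* 3 made 0 calls among all genes in edgeR, with 2512, 2731 and 2464 genes at an unadjusted p under 0.05. The block changed no call among the 10. The cause was not tested. *Xylt1* turned to -0.12 with limma-voom, -0.10 with the block, -0.19 without si-NC 2 and -0.46 without si-*Snhg18* 1, its lowest (highest 0.42). *Has3* turned to 0.00 without si-NC 3, 0.16 without si-*Snhg18* 2 and 0.04 without both libraries numbered 2 (lowest -0.27), and *Hyal2* to 0.00 without si-NC 3 (lowest -0.09). The difference in family share turned to 1.1 percentage points for *Xylt1* and 2.77 for *Chst11* without si-*Snhg18* 2, to 0.581 for *Ndst1* without si-NC 2 and to 0.173 for *Chst11* without si-NC 3, where the lowest values were -16.2 for *Xylt1*, -6.11 for *Chst11* and -6.99 for *Ndst1*. With the deposited exon length the difference in share was -1.88 points for *Ext1* and 0.984 for *Has2*, and without division by length -7.41 and 3.6, against -6.05 and 5.59. *Hs3st5* and *Hs3st6* had no value under the filter of 1 CPM in 3 libraries. With 3 libraries a group no permutation p can fall below 0.1, and at under 2 CPM the members' levels rest on few reads.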
